A study of Mus musculus with 36 samples.

Results

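Expression of 7 protease inhibitor genes was examined in mouse bone marrow-derived macrophages (BMDMs) that had received CCM, a small molecule that binds the PASB domain of the clock protein BMAL1. They are 6 serpin genes (Serpina3f, Serpina3g, Serpina3n, Serpinb2, Serpinb6a and Serpinb9) and Spint1, 7 of the 54532 genes in the count table. They were chosen by gene name from earlier results of these libraries, because several were strongly lowered by CCM under LPS. The difference between LPS+CCM and LPS is therefore given below as a description, with no test. BMDMs were grown from the marrow of female C57BL/6 mice (13 to 17 weeks old) for 7 days with MCSF. KO cells were LysM-Cre;Bmal1 flox/flox (n = 6 replicates), in which Cre is driven by the myeloid LysM promoter, and WT cells were from Cre-free flox/flox littermates (n = 3 replicates), so that both genotypes carry the floxed alleles. The 4 treatments, each of 6 h, were DMSO (vehicle), CCM at 100 µM, LPS at 100 nM, and both agents together (LPS+CCM), for 36 libraries in all.

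Serpins are suicide inhibitors. The protease cuts an exposed loop of the serpin, which then folds the protease into a distorted, covalently bound complex. Spint1 encodes a Kunitz-type inhibitor, which instead blocks the active site of its protease reversibly. LPS, the bacterial lipopolysaccharide that TLR4 senses, sets off an inflammatory program in macrophages, and several clade A3 and clade B serpins are known as part of it.

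Libraries held 13469262 to 28288923 read pairs on genes. Levels are given as CPM (read pairs scaled to a common library size) after TMM scaling of all 36 libraries, and differences as log2 fold changes from edgeR. The paper gives n beside female mice and the labels do not tie a replicate to an animal, so p-values measure the spread between these samples. Bmal1 (Arntl) was at 7.27 to 12.9 CPM in the 12 WT libraries and at 2.13 to 10.7 CPM in the 24 KO libraries, of which 12 were at or above the lowest WT library. The count covers the whole gene and the sources used here do not name the deleted exons, so this level does not check the genotype. All 6 macrophage markers were detected, at a summed 3035 to 6108 CPM. The summed level of other lists was 19 to 251 CPM (4 B cell markers), 293 to 1648 CPM (4 fibroblast markers), and at most 8.37, 1.77, 6.61 and 10.9 CPM for mast cell, T and NK cell, dendritic cell and erythroid markers. In such bulk RNA, fewer cells of a type and less RNA per cell cannot be told apart.

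The libraries of KO replicate 6 stood apart in all 4 treatments. Their deviations from the group means correlated with each other (mean r of 0.89 to 0.91) and negatively with those of most other KO libraries (mean r down to -0.79). The group means include replicate 6, which itself pushes the other deviations to the opposite sign. The summed level of 8 neutrophil markers was 1147 to 1201 CPM in these 4 libraries and 425 to 1115 CPM in the other 32, that of 4 erythroid markers 4.43 to 10.9 against 0.94 to 6.62 CPM, and that of the macrophage markers 3035 to 4541 against 3929.5 to 6108 CPM. The KO LPS+CCM library of replicate 5 deviated in the direction of replicate 6 (mean r of 0.44) and away from its own number (mean r of -0.24). Values are given with and without these libraries where they matter.

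To show what the inhibitor genes look like at their starts, the 250 bases before 1 RefSeq transcription start of each gene were read from GRCm38.p6. Serpina3f, Serpinb2 and Serpinb6a have 2 RefSeq windows each. For these, the start nearest to that of the gene in the count table was used, and the other window is not described. Serpina3f (chr12:104214544-104221129), Serpina3g (chr12:104236245-104241939) and Serpina3n (chr12:104406729-104414329) lie in that order on the plus strand of 1 serpin cluster. Stretches upstream of their starts are shown because they align with each other. Capitals mark the GAS motif (TTCNNNGAA, the palindrome known to bind STAT factors) in Serpina3f, its match in Serpina3g and the aligned bases in Serpina3n.
Serpina3f, chr12:104214403-104214492, plus strand: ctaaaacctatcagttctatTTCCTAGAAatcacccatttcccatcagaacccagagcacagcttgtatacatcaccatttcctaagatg
Serpina3g, chr12:104236095-104236129, plus strand: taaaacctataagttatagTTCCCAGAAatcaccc
Serpina3n, chr12:104406572-104406661, plus strand: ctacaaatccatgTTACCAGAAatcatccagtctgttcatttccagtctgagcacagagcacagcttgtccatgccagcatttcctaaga

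Over 35 aligned bases Serpina3g was 88.6% identical to Serpina3f, and over 80 aligned bases Serpina3n was 80% identical. The GAS match began at -121 in Serpina3f and at -33 in Serpina3g. The aligned bases of Serpina3n, at -123, did not match the motif. The motif was present in 7.02% of the 32851 windows of this length. Serpina3g and Serpina3n also held an NF-kB motif (GGNNNTTCC, on either strand), at -84 and -170, which was present in 15.7% of windows.

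Serpinb9 and Serpinb2 are shown for matches to other inflammatory motifs. Capitals mark the interferon response core (ISRE core, TTTCNNTTT) in Serpinb9, found in 9.37% of windows, and the AP-1 motif (TGANTCA) in Serpinb2, found in 6.75%.
Serpinb9, chr13:33004455-33004540, plus strand: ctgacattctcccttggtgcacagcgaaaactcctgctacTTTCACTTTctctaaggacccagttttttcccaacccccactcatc
Serpinb2, chr1:107511289-107511375, plus strand: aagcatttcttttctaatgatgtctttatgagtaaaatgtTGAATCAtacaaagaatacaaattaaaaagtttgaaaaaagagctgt

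Serpinb6a held a GAS match at -77 and an ISRE core match at -84, which overlap. Spint1 held none of the 6 motifs searched. The CRE motif (TGACGTCA, 1.55% of windows) and the E-box that BMAL1 and CLOCK bind (CACGTG, 6.02% of windows) were found in none of the 7 windows. The motifs were chosen after the sequences had been seen, and a match is a description of letters, not a bound site. For Serpinb9 the RefSeq start lies 1291 bases from the start of the gene in the count table, and for Serpina3g 98 bases.

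**Figure D1:**
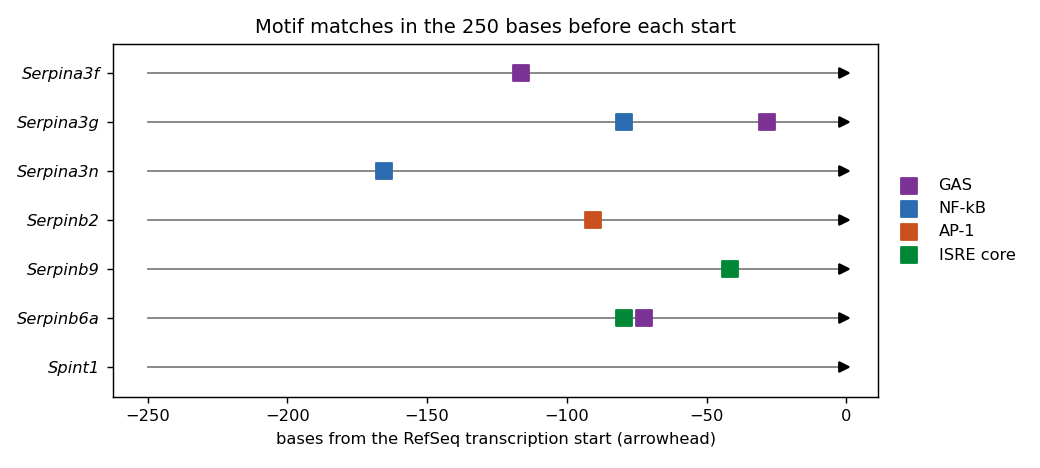
Position of motif matches, in bases from the RefSeq transcription start (x axis), for the 7 inhibitor genes (rows). Squares mark GAS, ISRE core, AP-1 and NF-kB matches. Serpina3f and Serpina3g carry a GAS match at different distances (-121 and -33), and Spint1 carries none.

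In unstimulated macrophages the most abundant serpin was Serpinb6a, an intracellular inhibitor known to act on cathepsin G. Its mean level in WT vehicle libraries was 67.2 ± 3.34 CPM per kilobase of gene length (SD, n = 3), the highest of the 68 genes with a Serpin symbol. Serpinb2 (PAI-2, an inhibitor of urokinase) stood at 7.55 ± 2.97 CPM per kilobase, Spint1 at 7.5 ± 1.57 and Serpinb9 at 5.38 ± 0.195. The Serpinb2 libraries overlapped with those of both other genes. Serpina3g was at 0.48 ± 0.0849 CPM per kilobase and Serpina3f at 0.0171 ± 0.0161.

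LPS changed this order. Serpinb2 was then the most abundant serpin in WT, at 128 ± 17.8 CPM per kilobase (SD, n = 3). Serpina3g (29.9 ± 4.9) and Serpinb6a (29.9 ± 1.21) could not be separated from each other. Serpinb9 was at 21.2 ± 1.51, Serpina3f at 12.5 ± 1.73 and Spint1 at 2.66 ± 0.442 CPM per kilobase. With LPS+CCM, Serpinb2 was at 40.8 ± 13.5 CPM per kilobase in WT (SD, n = 3) and 43.4 ± 17.7 in KO (SD, n = 6), and Serpina3g at 16 ± 2.35 in WT. These levels under CCM belong to the difference on which the genes were chosen.

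**Figure D2:**
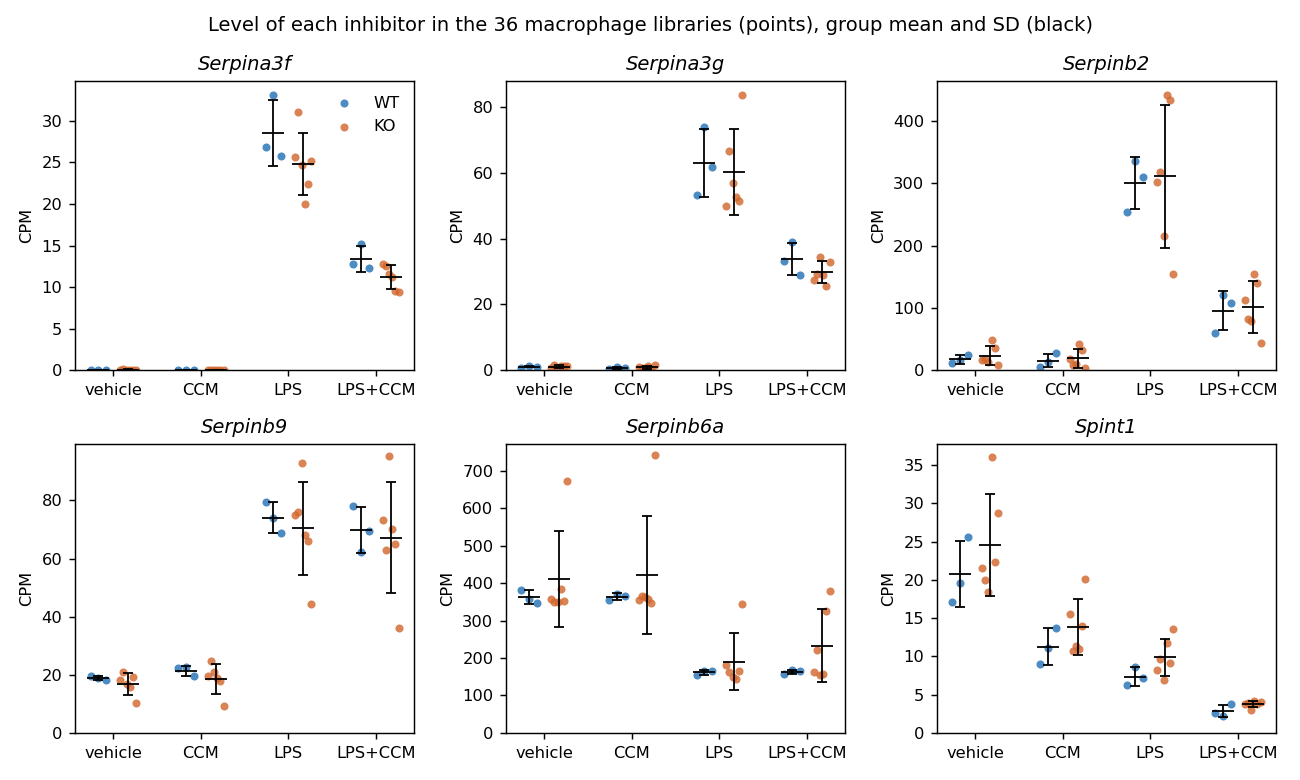
CPM (y axis, from 0, a scale per gene) of 6 inhibitor genes in each library, by treatment (x axis) and genotype (WT n = 3, KO n = 6). Bars give the group mean and SD. Serpina3f, Serpina3g, Serpinb2 and Serpinb9 are high with LPS, Serpinb6a and Spint1 are lower, and the Serpinb6a point near 672 CPM in KO vehicle is replicate 6.

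The comparison of LPS with vehicle asks how stimulation alone moved the inhibitors. It shares its LPS libraries with the difference on which the genes were chosen. Of the 7 genes, 6 passed the filter on low counts. Serpina3f passed it only through the LPS libraries, where it is high, so its call was fixed by the filter and it is described without a test. The other 5 were called by edgeR at an adjusted p of at most 0.05 in both genotypes, 3 higher and 2 lower. Among all genes tested, 30.6% were called higher and 32.4% lower in WT, and 22.4% and 24.7% in KO. Against that background the calls say little about these genes in particular. The median absolute log2 fold change over all genes tested was 0.54 in WT and 0.5 in KO, and the value nearest to 0 among the 5 genes was -1.16 in WT and -1.12 in KO, both for Serpinb6a. With total counts alone as the scaling, the median of all genes moved by -0.412 in WT and -0.384 in KO, and the share of calls that were higher moved from 48.6% to 24% in WT and from 47.6% to 24.2% in KO. The directions of the 6 genes did not change.

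Serpina3f, a member of the antichymotrypsin-like A3 family, was near 0 without LPS. WT vehicle libraries had 2, 1 and 0 read pairs, and WT LPS libraries had 456, 768 and 642 (26.9, 33.1 and 25.7 CPM). KO vehicle libraries had 0 to 4 read pairs, and KO LPS libraries had a lowest level of 19.9, a median of 25 and a highest of 31.1 CPM. The groups did not overlap in either genotype. The pooled level was 797 times that of vehicle in WT (95% exact interval from the counts, 272 to 3870) and 555 times in KO (255 to 1515). The interval covers counting error only.

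Serpina3g (also called Spi2A), known as an inhibitor of lysosomal cathepsins, was low but detectable without stimulation. Its level was 0.808, 1.15 and 1.07 CPM in WT vehicle and 53.4, 73.9 and 61.8 CPM in WT LPS libraries. In KO it was 0.373 to 1.47 CPM (median 1.31) with vehicle and 49.9 to 83.7 CPM (median 54.7) with LPS. Every LPS library was far above every vehicle library. LPS gave a log2 fold change of 5.97 (SE 0.169) in WT and 5.78 (SE 0.304) in KO, with adjusted p of 8.95e-10 and 4.68e-09 by edgeR.

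Serpina3n, known as an acute-phase product that inhibits granzyme B, was essentially not counted. It had 14 read pairs in all 36 libraries and at most 3 in any library, and it was removed by the filter in every comparison. At this depth a difference was not detectable. Serpina3f shares 10.6%, Serpina3g 15.5% and Serpina3n 6.9% of its 50-base windows with another gene, mostly of the A3 cluster, so read pairs could be exchanged between these genes. The neighbours Serpina3h and Serpina3i had 33 and 44 read pairs in all libraries, against 6366 for Serpina3f and 15641 for Serpina3g.

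Serpinb2 varied widely among the KO libraries. WT vehicle libraries had 11.4, 16.6 and 25.2 CPM, and WT LPS libraries 254, 337 and 309.6 CPM. KO vehicle libraries had 8.2 to 48.3 CPM (median 17.4), and KO LPS libraries 155 to 442 CPM (median 311). The groups did not overlap, and each of the 9 same-numbered pairs was higher with LPS. The fitted log2 fold change was 4.07 (SE 0.245) in WT and 3.72 (SE 0.439) in KO, with adjusted p of 2.4e-07 and 1.1e-05 by edgeR. Serpinb2 (chr1:107511423-107535478) shares exon sequence on its strand with Serpinb10, which holds 10.4% of its 50-base windows. Read pairs from this stretch could belong to either gene. Serpinb10 had 486 read pairs in all libraries, against 77827 for Serpinb2.

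Serpinb9, the intracellular inhibitor of granzyme B, had the tightest WT groups among the genes that rose. Its level was 19.5, 18.8 and 18.1 CPM with vehicle and 79.4, 74 and 68.9 CPM with LPS in WT. In KO it was 10.4 to 21.1 CPM (median 17.6) and 44.2 to 92.9 CPM (median 71.5). The lowest value in each KO group was that of replicate 6. In the fits the log2 fold change was 1.98 (SE 0.0728) in WT and 2.04 (SE 0.185) in KO, with adjusted p of 5.66e-09 and 9.2e-07 by edgeR.

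Serpinb6a (chr13:33917918-34002794, minus strand) moved the other way. WT libraries had 383, 359 and 348 CPM with vehicle and 154, 165 and 165 CPM with LPS, and the groups were far apart. KO libraries had 349 to 672 CPM (median 355) and 144 to 343 CPM (median 163). The log2 fold change was -1.16 (SE 0.0593) in WT and -1.12 (SE 0.256) in KO, with adjusted p of 6.79e-08 and 0.00268 by edgeR. Its exons overlap those of Nqo2, Ripk1 and 1110046J04Rik on the other strand, and 25.1% of its 50-base windows occur in another gene. Whether strand was used in counting is not given in the sources used here, so reads of the overlap cannot be told apart.

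Spint1 (chr2:119237362-119249527), whose product HAI-1 inhibits the activator of hepatocyte growth factor and matriptase, also fell. WT libraries had 17.2, 19.6 and 25.6 CPM with vehicle and 6.26, 8.67 and 7.14 CPM with LPS. KO libraries had 18.4 to 36.1 CPM (median 22) and 6.86 to 13.6 CPM (median 9.39). The groups did not overlap. With LPS the log2 fold change was -1.49 (SE 0.174) in WT and -1.32 (SE 0.211) in KO, with adjusted p of 3.78e-05 and 0.000159 by edgeR.

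The comparison of CCM with vehicle in unstimulated cells asks what CCM did without LPS. It does not use the libraries on which the genes were chosen. Of the 7 genes, 5 passed the filter. In the main fit, which has no replicate block, edgeR called none in either genotype. That fit called 0.057% of all genes in WT and 0% in KO. Of the 5, Spint1 alone had an unadjusted p under 0.05 in it (edgeR), in both genotypes, as had 1404 of 14024 genes in WT and 333 of 13799 in KO. With the replicate number as a block, Spint1 was called in both genotypes, where 255 genes in WT and 429 in KO were called.

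Spint1 was lower with CCM in each of the 9 same-numbered pairs. WT libraries had 17.2, 19.6 and 25.6 CPM with vehicle and 8.94, 11.1 and 13.7 CPM with CCM, which do not overlap, as was also so for 6.5% of all genes tested (lower with CCM). The CCM level was 54.3 ± 2.45% of that in the same-numbered vehicle library (SD, n = 3). KO libraries had 18.4 to 36.1 CPM with vehicle and 10.7 to 20.1 CPM (median 12.7) with CCM, and these groups overlapped, while 0.261% of all genes were separated and lower. The KO ratio was 58.5 ± 15.2% (SD, n = 6), from 30.6% to 72.2%. Of the low-level marker lists, those of mast cells and dendritic cells were lower with CCM in WT, and both overlapped in KO. The other low-level lists overlapped in WT. Erythroid markers were at 1.5 to 2.53 CPM with vehicle and 2.14 to 2.68 CPM with CCM. T and NK cell markers were at 0.448 to 0.808 and 0.535 to 0.97 CPM. The summed level of 5 mast cell markers, of which Mcpt4 was at 0 in every library, was 4.5 to 5.29 CPM with vehicle and 2.59 to 3.33 CPM with CCM in WT, and 3.46 to 8.37 and 2.85 to 5.25 CPM in KO. That of 4 dendritic cell markers was 1.85 to 3.28 and 1.05 to 1.43 CPM in WT, and 1.82 to 3.42 and 1.24 to 3.02 CPM in KO. The larger neutrophil, fibroblast and B cell lists overlapped in both genotypes, each with a lower median with CCM. In WT the medians with vehicle and CCM were 657 and 468 CPM (neutrophil), 674 and 571 CPM (fibroblast), and 59.4 and 54.7 CPM (B cell). In KO they were 922 and 690, 674 and 645, and 95.2 and 60.7 CPM. The part of all these lists in the Spint1 difference was not tested.

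The log2 fold change of Spint1 was -0.90 (SE 0.187, unadjusted p = 0.000908, adjusted p = 0.13 by edgeR) in WT and -0.83 (SE 0.216, unadjusted p = 0.00227, adjusted p = 1 by edgeR) in KO. In KO, the fit with the replicate number as a block gave -0.82 with an adjusted p of 0.00888 by edgeR, and called 1.7% of all genes lower. Without KO replicate 6 it was -0.93 with an adjusted p of 0.0376, where 0.489% of genes were called lower. DESeq2 called Spint1 in WT (adjusted p = 0.000232) and not in KO (adjusted p = 0.135). Whether the gene is called without LPS thus depends on the fit, while the direction did not.

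The other 4 inhibitors tested had no unadjusted p under 0.05, with wide errors for the low or variable genes. Serpina3g had log2 fold changes of -0.55 (SE 0.386) in WT and -0.28 (SE 0.388) in KO. Without 1 library the WT value ranged from -0.92 to -0.25, and without KO replicate 6 the KO value was -0.44. Serpinb2 had -0.20 (SE 0.467) and -0.28 (SE 0.589). Serpinb9 had 0.17 (SE 0.0834) and 0.13 (SE 0.211), and Serpinb6a -0.01 (SE 0.0539) and 0.04 (SE 0.243). Serpina3f had 0 read pairs in the 3 WT CCM libraries and at most 2 in a KO CCM library.

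The difference between LPS+CCM and LPS is the one on which the genes were chosen, and its values describe the choice. In WT, 4 of the 7 genes had separate groups, lower with CCM, against 15.3% of all genes tested. In KO the same 4 genes were separate, against 0.725% of all genes tested. They were Serpinb2, Spint1, Serpina3f and Serpina3g. Serpinb6a and Serpinb9, which are among the chosen genes, overlapped between LPS and LPS+CCM in both genotypes.

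Serpinb2 had the lowest ratio to LPS of the 6 genes. WT LPS+CCM libraries had 59.9, 120.2 and 107 CPM after 254, 337 and 309.6 CPM with LPS, and the ratio to the same-numbered LPS library was 31.3 ± 6.75% (SD, n = 3). KO LPS+CCM libraries had 43.5 to 154 CPM (median 97.3), a ratio of 32.5 ± 4.76% (SD, n = 6). Its log2 fold change was -1.64 (SE 0.203) in WT and -1.63 (SE 0.314) in KO. Serpinb2 belongs to the phagocytosis panel of the study.

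Spint1 had the lowest level of the 6 genes with LPS+CCM, at 2.62, 2.2 and 3.75 CPM in WT and 3 to 4.22 CPM (median 3.83) in KO. The ratio to LPS was 39.9 ± 13.7% in WT (SD, n = 3) and 39.4 ± 5.92% in KO (SD, n = 6). The log2 fold change was -1.36 (SE 0.216) in WT and -1.40 (SE 0.178) in KO, beside -0.90 and -0.83 for CCM without LPS. The difference between these values was not tested. With LPS the summed mast cell markers were at 5.31 to 6.62 CPM and with LPS+CCM at 2.5 to 6.71 CPM in WT, and at 5.4 to 7.14 and 2.17 to 4.91 CPM in KO. The dendritic cell markers were at 3.53 to 4.31 and 2.04 to 2.5 CPM in WT, and at 2.36 to 4.99 and 2.63 to 6.61 CPM in KO. The neutrophil, fibroblast and B cell lists overlapped between LPS and LPS+CCM in both genotypes. Each had a lower median with LPS+CCM in WT, such as 544 and 452 CPM for neutrophil markers. In KO the median was lower for B cell markers alone. The part of these lists in the difference was not tested.

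Serpina3f had 12.7, 15.2 and 12.3 CPM with LPS+CCM in WT and 9.39 to 12.8 CPM (median 11.4) in KO. Its ratio to LPS was 46.9 ± 1.02% in WT (SD, n = 3) and 45.6 ± 6.98% in KO (SD, n = 6). Serpina3g had 33.3, 38.9 and 29 CPM in WT and 25.6 to 34.5 CPM (median 29.1) in KO, with ratios of 54 ± 7.82% and 50.7 ± 7.96%. The log2 fold changes were -1.09 (SE 0.116) and -1.17 (SE 0.135) for Serpina3f and -0.90 (SE 0.125) and -1.03 (SE 0.152) for Serpina3g, in WT and KO. The neighbouring genes thus had similar ratios, and their levels with LPS+CCM stayed far above vehicle.

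Serpinb9 had 78.1, 62.2 and 69.6 CPM with LPS+CCM in WT, a ratio of 94.5 ± 9.13% (SD, n = 3), and 35.9 to 95.2 CPM in KO, a ratio of 94.4 ± 9.73% (SD, n = 6). Its log2 fold changes were -0.08 (SE 0.0845) and -0.09 (SE 0.214). Serpinb6a had 158, 167 and 164 CPM in WT, a ratio of 101 ± 1.55%, with a log2 fold change of 0.01 (SE 0.0482). In KO its ratio was 125 ± 39%, from 89.4% to 198%, with a log2 fold change of 0.27 (SE 0.284). The ratio of 198% was that of replicate 5, from 164 CPM with LPS to 325 CPM with LPS+CCM. Without KO replicate 6 and this library the log2 fold change was 0.12. Without them it was -1.68 for Serpinb2, -1.28 for Spint1, -1.04 for Serpina3f and -0.88 for Serpina3g.

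**Figure D3:**
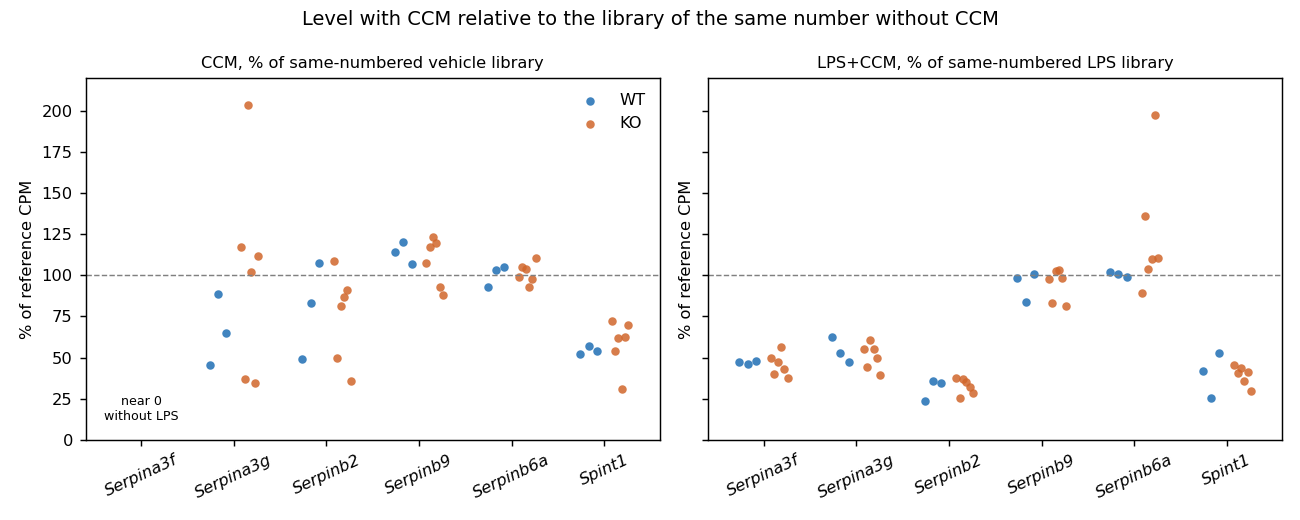
CPM with CCM as % of the library with the same genotype and number without CCM (y axis), unstimulated (left) and with LPS (right), for 6 inhibitor genes (x axis). Each point is 1 pair (WT 3, KO 6) and the dashed line is 100%. Spint1 points lie under the line in both panels, and Serpina3f, Serpina3g and Serpinb2 points all lie under it with LPS.

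**Figure D4:**
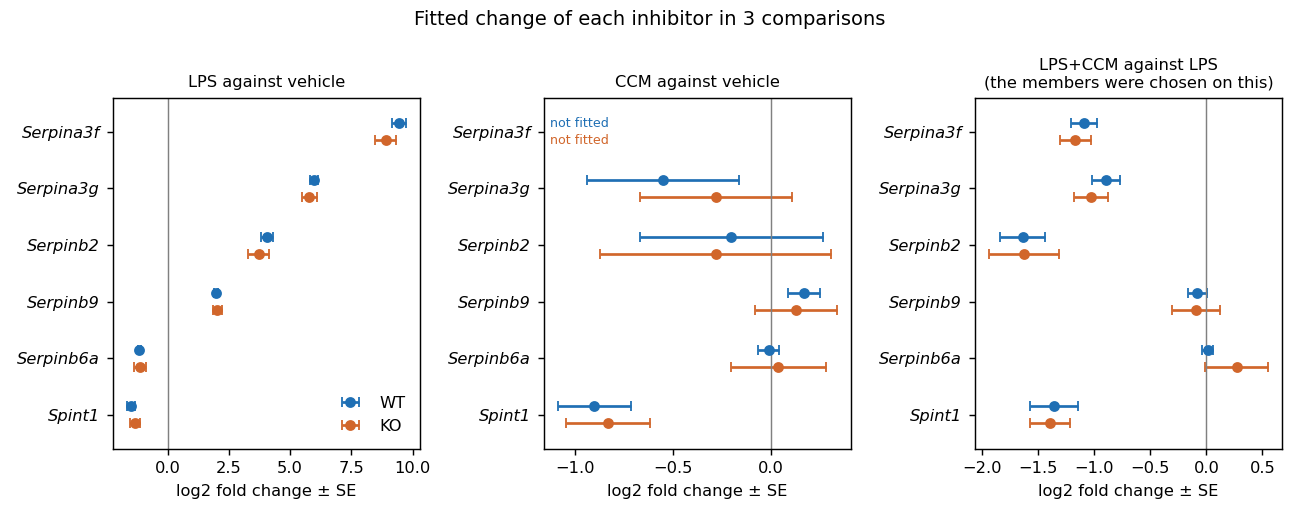
Fitted log2 fold change ± SE (x axis, a scale per panel) of 6 inhibitor genes (rows) for LPS, CCM and CCM under LPS, in WT and KO. Serpinb9 and Serpinb6a lie near 0 in both CCM panels, and Spint1 is below 0 in all 3 panels.

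The comparison of KO with WT asks whether the inhibitors differed between the genotypes as labelled. The Bmal1 level given above does not check the deletion, so the values do not show what its loss does. No inhibitor was called by edgeR with vehicle (0 of 5) or with LPS (0 of 6), none had an unadjusted p under 0.05, and DESeq2 called none. edgeR called 0% of all genes in either comparison, and 118 and 105 genes had an unadjusted p under 0.05. No inhibitor had separate genotype groups, as 0.925% of genes had with vehicle and 1.13% with LPS. With LPS, the log2 fold change was largest for Spint1, at 0.42 (SE 0.226, unadjusted p = 0.0928 by edgeR), and 0.30 without KO replicate 6. It was -0.20 (SE 0.145) for Serpina3f, -0.07 (SE 0.182) for Serpina3g, 0.06 (SE 0.304) for Serpinb2 and -0.07 (SE 0.189) for Serpinb9. Serpinb6a had 0.24 (SE 0.265), and -0.01 without KO replicate 6. With vehicle, Serpinb2 had 0.42 (SE 0.53), which ranged from 0.06 (without KO vehicle replicate 4) to 0.77 when 1 library was left out. Spint1 had 0.26 (SE 0.242), Serpinb6a 0.20 (SE 0.231), Serpina3g 0.12 (SE 0.403) and Serpinb9 -0.14 (SE 0.184).

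The test of the genotype by LPS interaction asks whether LPS moved a gene differently in KO. Serpina3f is set aside, since it passed the filter only through the LPS libraries. None of the other inhibitors tested was called by edgeR, 0% of all genes had a call, and 112 genes had an unadjusted p under 0.05. Their estimates ranged from -0.35 (SE 0.625) for Serpinb2 to 0.18 (SE 0.33) for Spint1. For Serpina3f, with 3 vehicle read pairs in WT and 6 in KO, the fitted value was -0.47 (SE 0.985), as a description. The effect of CCM under LPS was not compared between genotypes by a test, since the genes were chosen on it.

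KO replicate 6 stood apart for several inhibitors. Serpinb6a was at 672, 741, 343 and 379 CPM in its vehicle, CCM, LPS and LPS+CCM libraries, which is 187%, 207%, 214% and 218% of the mean of the other KO libraries (LPS+CCM without replicate 5). Serpinb9 was at 56.9%, 44.9%, 58.5% and 47.7% of that mean, and Serpinb2 at 31.1%, 12.9%, 45.1% and 40.7%. Spint1 was at 108% to 160%. Without replicate 6 the mean Serpinb6a level was 359 ± 15.2 CPM in KO vehicle (SD, n = 5), beside 363 ± 18.1 CPM in WT (SD, n = 3), and the log2 difference between genotypes changed from 0.20 to -0.01. The part of the neutrophil, erythroid and macrophage marker levels of this replicate in these differences was not tested.

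**Figure D5:**
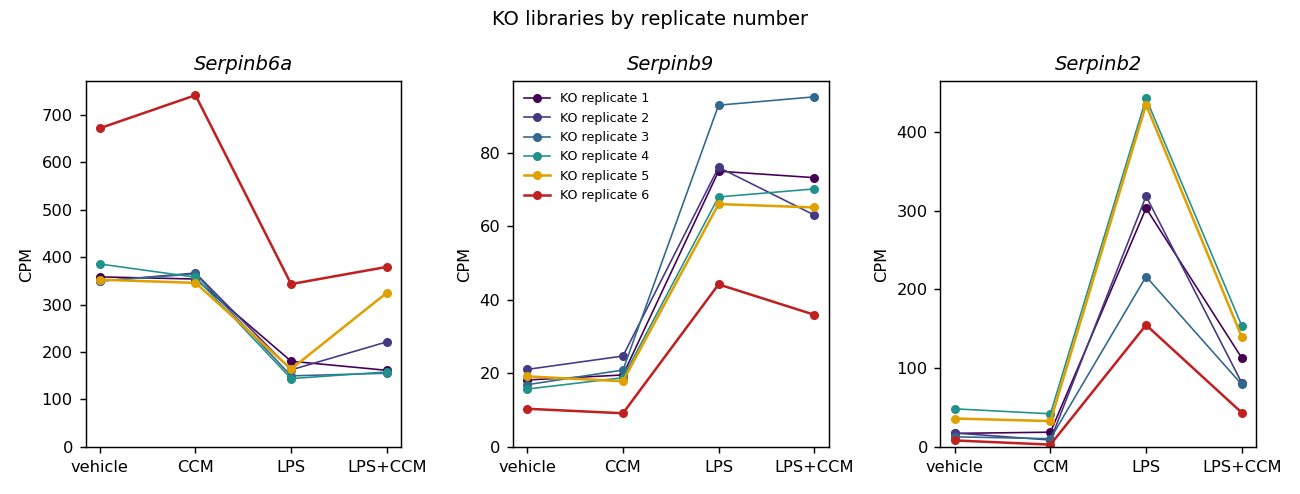
CPM of Serpinb6a, Serpinb9 and Serpinb2 (y axes from 0) in the 24 KO libraries by treatment (x axis), with a line per replicate number. Replicate 6 (red) is highest for Serpinb6a and lowest for Serpinb9 and Serpinb2 in every treatment, and replicate 5 (yellow) is at 325 CPM of Serpinb6a with LPS+CCM.

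The genes most like each inhibitor were sought by Pearson's r of log2 CPM over the 36 libraries, among about 11177 genes with a mean log2 CPM of at least 1. The libraries fall into LPS-treated and unstimulated ones, so these values mostly compare the 2 sets. Serpina3f was most like H2-M2 (r = 0.996), Parp12 (0.995) and Lgals9 (0.995), and Serpina3g most like Dhx58 (0.992), Irf7 (0.99) and Il1rn (0.99). Parp12, Dhx58 and Irf7 are known as interferon-induced genes. Serpinb2 was most like Inhba (0.967), Vcan (0.958) and Zeb1 (0.953), and Serpinb9 most like Lztfl1 (0.991), Nampt (0.99) and Cybb (0.99). Serpinb6a was most like Atraid (0.99), Cd300c2 (0.987) and Fuca1 (0.987), and Spint1 most like Rhoj (0.884), Lmo2 (0.874) and Angptl2 (0.866). Spint1 thus had the lowest likeness values.

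Among the 62 other serpin genes, 16 were tested for LPS in WT, of which 2 were called higher and 3 lower. In KO 14 were tested, with 1 higher and 2 lower. Among all genes tested, 30.6% were called higher and 32.4% lower in WT, and 22.4% and 24.7% in KO. The median log2 fold change was -0.04 in WT and 0.03 in KO, and over all genes tested -0.053 and -0.054. Serpinb1b, an inhibitor related to the neutrophil elastase inhibitor, rose from 1.78 ± 0.243 to 5.69 ± 0.306 CPM in WT (SD, n = 3), a log2 fold change of 1.67 (1.42 in KO). Serpinb6b, a close relative of Serpinb6a, fell by 0.93 on the log2 scale in WT and by 0.8 in KO. Serpinb12 fell by 0.98 in WT. With CCM, none of 15 tested in WT and none of 14 in KO was called by edgeR. For LPS+CCM against LPS, as a description, Serpinb1b had log2 fold changes of 0.1 in WT and 0.25 in KO. Serpinb6b had -0.06 and -0.4, and Serpinb12 had 0.75 in WT. Of the genes fitted, 8 were lower and 6 higher in WT, and 9 lower and 4 higher in KO.

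Of 22 inhibitors of other families, 15 were tested, and 8 were called higher and 2 lower with LPS in both WT and KO. Over all genes tested, 30.6% were called higher and 32.4% lower in WT, and 22.4% and 24.7% in KO. The median log2 fold change was 0.95 in WT and 0.96 in KO. Cst7, which encodes cystatin F, an inhibitor of lysosomal cysteine proteases, rose by 5.39 (SE 0.123) in WT and 5.40 (SE 0.237) in KO on the log2 scale. Slpi, the secreted inhibitor of neutrophil elastase, rose by 4.35 (SE 0.176) and 4.02 (SE 0.397), and Wfdc17 by 2.09 (SE 0.0914) and 1.97 (SE 0.33). Spint2, the closest relative of Spint1, rose by 3.37 (SE 0.194) and 3.31 (SE 0.368), from 0.991 ± 0.217 to 10.4 ± 0.779 CPM in WT (SD, n = 3), while Spint1 fell. No gene of this list was called for CCM without LPS in either genotype (0 of 15). For LPS+CCM against LPS, as a description, Cst7 had log2 fold changes of -0.68 in WT and -0.39 in KO. Slpi had 0.29 and 0.57, Spint2 -0.13 and 0.2, and Wfdc17 -0.18 and 0.02. Of the genes fitted, 12 were lower and 3 higher in WT, and 6 lower and 8 higher in KO.

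Of 30 proteases and receptors, 22 were tested for LPS in WT, with 7 higher and 12 lower, and 21 in KO, with 7 higher and 8 lower. The shares of all genes called higher and lower were 30.6% and 32.4% in WT, and 22.4% and 24.7% in KO. The median log2 fold change was -0.57 in WT and -0.48 in KO. Plau, the urokinase that Serpinb2 inhibits, fell from 305 ± 16.8 to 48.4 ± 5.39 CPM in WT (SD, n = 3), a log2 fold change of -2.65 (SE 0.0838), and of -2.56 (SE 0.153) in KO. F10, the coagulation factor X, rose by 4.70 (SE 0.0885) in WT and 4.46 (SE 0.362) in KO. Met, the receptor of hepatocyte growth factor, rose by 3.71 (SE 0.101) and 3.69 (SE 0.229), and Ctsc, the cathepsin that activates granzymes, by 2.59 (SE 0.072) and 2.67 (SE 0.209). None of the 21 tested was called by edgeR for CCM without LPS in either genotype. Under LPS+CCM against LPS, as a description, the log2 fold change was -0.64 for Plau in WT and -0.62 in KO, and -0.06 and -0.18 for Met. It was -0.43 and -0.34 for F10, and -0.02 and -0.09 for Ctsc. Of the 21 genes fitted in each genotype, 16 were lower and 5 higher.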

How the data were processed

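RNA-seq was performed by the authors on poly(A) RNA of BMDMs, 36 libraries in 8 groups (WT n = 3, KO n = 6 per treatment). Per the labels and the paper's methods, reads were trimmed with fastp, aligned with HISAT2 2.0.5 to mm10 (GRCm38) and counted per gene with featureCounts 1.5.0-p3. The deposited values are raw counts of read pairs, and all count columns were used. All 7 inhibitor genes have the same coordinates in GENCODE release M21. The members and gene lists were chosen with earlier results of these data known.

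From the counts, edgeR 4.0.16 in R 4.3.3 was fitted to the libraries of each comparison alone (filterByExpr, TMM, quasi-likelihood test, two-sided, Benjamini-Hochberg over all genes tested, threshold 0.05), without a block. SE is the log2 fold change over the square root of F. CPM use TMM factors over 36 libraries, and log2 CPM a prior count of 2. Promoter windows came from RefSeq (GRCm38.p6, 7 of 7 matched). The scripts were tested on simulated data.

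Alternatives were DESeq2 1.42.0, RLE or no scaling, no filter, 1 fit of all 36 libraries, the replicate number as a block, and fits without a single library or without KO replicate 6. The fit without KO replicate 6 and the KO LPS+CCM library of replicate 5 was added after seeing the data. The paper gives n beside female mice, and the sources used here do not say that libraries of 1 number in different treatments came from 1 mouse. Same-numbered deviations correlated at 0.299 to 0.829 for LPS in KO and 0.338 to 0.842 for CCM in KO. For LPS+CCM in WT they correlated at 0.151 to 0.36, so each of these was over 0.1. Between different numbers the median was 0.173, 0.223 and -0.132 in turn, so in KO it was over 0.1 too. Some KO libraries correlated best with another number, such as vehicle replicate 5 (0.65 with number 4, 0.38 with its own). The mark thus does not establish pairs in KO, and the block is an alternative alone. In the other comparisons the lowest same-numbered value was 0.047, 0.051 and -0.1. Every inhibitor is named. Of the other lists, at most 4 called genes per comparison with an average log2 CPM of at least 1 are named by size of change, and 3 genes per member by likeness. The result of 1 item is not given.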

Additional observations from a re-analysis of the deposited data

Results flagged for a closer look

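In each group of 6 KO libraries, a level was marked where the gap from the highest or lowest library to its neighbour was over 0.625 of the range. This test picks out about 1 in 20 groups by chance where values are independent and normally spread. Of 28 groups, 5 were marked, and that rate is no measure for them. Of the marks, 3 are 1 gene in 1 replicate, and the others rest on a few read pairs. Serpina3n in KO CCM, at 0 in every library, could not be marked. Serpinb6a was marked in replicate 6 in 3 groups, at 672 CPM with vehicle (others 349 to 386), 741 CPM with CCM (others 346 to 366) and 343 CPM with LPS (others 144 to 181). Serpina3f in KO vehicle was marked in replicate 2, at 0.178 CPM (others 0 to 0.0466), which is 4 read pairs. Serpina3n in KO vehicle was marked in replicate 1, at 0.0419 CPM (others 0), which is 1 read pair.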

How the results depend on the processing

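For LPS against vehicle, the 5 inhibitors tested (Serpina3f aside, whose call the filter fixed) were called with the same direction in every alternative run, in WT and KO. The number called for CCM against vehicle in WT was 0 in the main fit and 1 (Spint1) with DESeq2, with no filter and with the replicate block (adjusted p of 0.000232, 3.19e-06 and 0.00197). In KO it was 0, and 1 (Spint1) with the replicate block and without KO replicate 6. In WT the lowest correlation of same-numbered deviations was 0.051, though each WT library correlated best with its own number. In KO the lowest was 0.338, but the median between different numbers was 0.223. Some KO libraries correlated best with another number. The block changed no other call of an inhibitor. Over all genes, the count for CCM in WT was 8 in the main fit, 246 with DESeq2, 377 with no filter, 255 with the block, 0 in the fit of all 36 libraries, and 0 to 16 without 1 library. For CCM in KO it was 0, and 42, 14, 429 and 141 with DESeq2, all libraries, the block and without KO replicate 6. For LPS it was 9139 in WT and 5644 in the fit of all libraries, and 6433 in KO and 9774 with the block.

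In the tested comparisons, reversals occurred only for estimates that were not called. For CCM in WT, Serpinb6a was 0.005 in the fit of all libraries, and without 1 library it ranged from -0.037 to 0.026 and Serpinb2 from -0.894 to 0.197. In KO, Serpinb6a was -0.013 without replicate 6 and ranged from -0.209 to 0.245 without 1 library, and Serpinb2 from -0.67 to 0.076. For KO against WT with vehicle, Serpinb6a was -0.013 without replicate 6 and ranged from -0.013 to 0.249, and Serpina3g from -0.011 to 0.301. With LPS, Serpinb6a was -0.012 and Serpinb9 0.028 without replicate 6, and the ranges were -0.012 to 0.308 for Serpinb6a, -0.168 to 0.028 for Serpinb9, -0.073 to 0.193 for Serpinb2 and -0.188 to 0.059 for Serpina3g. In the interaction, Serpinb6a was -0.011 without replicate 6, and the ranges were -0.198 to 0.271 for Serpinb6a, -0.024 to 0.172 for Serpinb9 and -1.293 to 0.618 for Serpina3f. The difference between LPS+CCM and LPS, which had no test, also held changes of sign without 1 library. Serpinb6a ranged from -0.02 to 0.03 in WT, and Serpinb9 from -0.22 to 0.04 in KO. The cause of the reversals was not tested. With Spearman's rho in place of Pearson's r, 2 of the 3 genes most like Serpinb2 and 1 of 3 for Spint1 were shared, and 0 for the other 4. Depth limits Serpina3n in all groups and Serpina3f without LPS.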
